A study of Mus musculus with 12 samples.

Results

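The 10 genes described here belong to the hepatic acute phase response and to signalling through STAT3, and their levels are given in livers of wild-type and Lats2-CKO mice on 2 diets. They were the serum amyloid A genes Saa1, Saa2 and Saa3, the genes of orosomucoid 2 (Orm2), haptoglobin (Hp), hemopexin (Hpx) and lipocalin 2 (Lcn2), and Steap4, Socs3 and Stat3. A gene counted as measured when the platform's annotation gave a probe set that gene's symbol and no other, and the probe set with the highest mean stood for it. By this rule 9 of the 10 genes were measured, out of 22180 genes in all. Saa1 was not, because its probe set also carries the symbol of Saa2, and no value is given for it. The mean of each of the 9 genes, and its value on every array, lay above 3.05, the log2 level that 30% of all probe set values over all arrays fell below. The Saa2 probe set carries 1 symbol, but Saa1 and Saa2 are close copies, and how far it also reads Saa1 was not tested.

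All mice were male and 8 weeks old when the diets began, and the diets lasted 9 weeks. The 4 groups of 3 were wild type on a chow without cholesterol, Lats2-CKO on that chow, wild type on a Paigen diet, which here held 1.25% cholesterol, and Lats2-CKO on that high-cholesterol diet. The kinase LATS2 belongs to the Hippo pathway, which restrains growth. The labels call the mutant both Lats2-CKO and Lats2-KO, and the sources used here do not give the Cre line, the cells it acts in or the part of the gene removed. Liver RNA was read on 12 single-colour arrays, 1 for each numbered biological replicate, and values are log2 expression, so that a difference of 1 is a doubling.

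In infection and injury, cytokines such as interleukin 6 (IL-6) and interleukin 1 reach the hepatocyte, where IL-6 acts through the receptor chain gp130 to activate STAT3 and interleukin 1 acts through NF-kB. These factors, with the C/EBP proteins, drive the secreted acute phase proteins, some of which are among the most inducible transcripts of the liver. STAT3 also drives the gene of SOCS3, which binds gp130 and ends the signal.

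The stretch around the start site, from 250 bases before it to 50 after, was available from RefSeq (assembly GRCm38.p6) for 9 of the 10 genes, Hp being without an entry. Each stretch was searched on both strands for a STAT motif (TTCNNNGAA), an NF-kB motif (GGG, any 2 bases, then TTTCC) and a C/EBP motif (TTGCNNAA). The 6 promoters below are of the genes whose values spread most over the arrays, and of Socs3, the classical STAT3 target. They are written in the direction of transcription, with motif matches in capitals.
Saa2 promoter (chr7:46751583-46751882, plus strand): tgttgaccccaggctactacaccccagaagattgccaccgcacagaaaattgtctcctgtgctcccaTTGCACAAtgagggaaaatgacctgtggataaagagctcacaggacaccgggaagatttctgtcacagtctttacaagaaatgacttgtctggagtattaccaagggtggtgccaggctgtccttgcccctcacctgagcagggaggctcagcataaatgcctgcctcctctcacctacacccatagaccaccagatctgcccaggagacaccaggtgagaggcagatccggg
Saa3 promoter (chr7:46715627-46715926, minus strand): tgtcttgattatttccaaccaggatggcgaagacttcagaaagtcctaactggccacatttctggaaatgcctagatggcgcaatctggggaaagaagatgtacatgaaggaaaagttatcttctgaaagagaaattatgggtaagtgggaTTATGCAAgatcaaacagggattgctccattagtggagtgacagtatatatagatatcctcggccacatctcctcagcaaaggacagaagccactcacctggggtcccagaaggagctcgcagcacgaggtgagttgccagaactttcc
Orm2 promoter (chr4:63362199-63362498, plus strand): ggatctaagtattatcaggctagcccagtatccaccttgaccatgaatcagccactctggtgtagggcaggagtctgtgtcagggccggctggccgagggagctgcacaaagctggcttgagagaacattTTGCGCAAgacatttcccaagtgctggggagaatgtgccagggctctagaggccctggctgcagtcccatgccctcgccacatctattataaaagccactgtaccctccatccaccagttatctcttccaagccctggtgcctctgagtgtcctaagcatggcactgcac
Lcn2 promoter (chr2:32387690-32387989, minus strand): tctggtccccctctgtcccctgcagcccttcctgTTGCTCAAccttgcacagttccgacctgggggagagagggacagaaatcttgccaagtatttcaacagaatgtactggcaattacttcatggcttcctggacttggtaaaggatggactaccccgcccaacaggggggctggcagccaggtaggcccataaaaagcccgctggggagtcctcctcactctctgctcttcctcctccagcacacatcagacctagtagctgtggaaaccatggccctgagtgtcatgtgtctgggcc
Steap4 promoter (chr5:7960222-7960521, plus strand): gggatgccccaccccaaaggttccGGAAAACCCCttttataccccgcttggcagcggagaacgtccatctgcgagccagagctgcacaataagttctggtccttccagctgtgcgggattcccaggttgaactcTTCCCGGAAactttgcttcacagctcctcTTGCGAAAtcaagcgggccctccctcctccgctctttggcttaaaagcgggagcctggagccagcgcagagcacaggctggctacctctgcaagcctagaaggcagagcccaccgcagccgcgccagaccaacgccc
Socs3 promoter (chr11:117969317-117969616, minus strand): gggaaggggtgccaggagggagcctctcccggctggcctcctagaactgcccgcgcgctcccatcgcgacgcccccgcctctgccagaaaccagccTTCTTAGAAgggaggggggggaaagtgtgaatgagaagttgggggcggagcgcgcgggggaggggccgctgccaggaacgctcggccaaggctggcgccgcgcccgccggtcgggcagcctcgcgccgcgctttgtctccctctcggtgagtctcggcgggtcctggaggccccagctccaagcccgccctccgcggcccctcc

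The C/EBP motif was found in 7 of the 9 promoters, in Saa1, Saa2, Saa3, Orm2, Hpx, Lcn2 and Steap4, and in 10.8% of all 32851 promoters in the same table. In Saa2 it reads TTGCACAA and begins at base -183, counted from the start site. In Orm2 it is the palindrome TTGCGCAA at base -120, and in Saa3 it lies on the opposite strand, as TTATGCAA, at base -99. The STAT motif was found in Steap4, as TTCCCGGAA at base -116, and in Socs3, as TTCTTAGAA at base -154, against 8.3% of all promoters. Steap4 was the one promoter of the 9 with the NF-kB motif, which reads GGAAAACCCC on the opposite strand at base -226 and was found in 1.63% of all promoters. The Steap4 promoter thus held all 3 motifs, with a C/EBP match TTGCGAAA at base -87. The Stat3 promoter held none of these letter patterns. The Saa1 and Saa2 promoters were identical at 95.3% of bases, whereas Saa3 matched them at 49.5% and 49.1%. A match of letters is a description of the sequence and does not show binding.

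Lats2 itself read 5.15, 5.14 and 5.69 in wild type and 4.37, 4.76 and 4.79 in Lats2-CKO on chow, and 5.12, 5.71 and 5.97 against 4.62, 4.89 and 4.99 on the high-cholesterol diet, so that genotypes did not overlap on either diet. Since the removed part of the gene is not given, a remaining signal cannot be read as intact Lats2. Hepatocyte markers (9 of 9 measured) had a mean between 12.06 and 12.21 on every array. The array labelled wild-type chow replicate 3 went against its diet label. Sqle, a gene of cholesterol synthesis, read 2.55 there, against 7.97 and 7.01 on the other 2 arrays of its group, 7.96 to 8.70 in Lats2-CKO on chow and 2.79 to 2.98 on all high-cholesterol arrays. Abcg5, a sterol exporter gene, read 10.45 against 8.6 and 8.37, and 10.37 to 10.70 on the high-cholesterol diet. It was kept in the group its label gives, and the results are also given without it, since each chow value of wild type rests in part on it. The arrays also fell into 2 sets of 6 by their median over all probe sets, at 3.48 to 3.49 and at 3.42 to 3.43. The higher set held arrays 1 and 2 from each chow group and array 1 from each high-cholesterol group, so that diet was unequally spread over the sets. Values within each set are given for the main differences. In the lower set each chow group is array 3 alone, so wild-type chow there is the array that went against its label. In the higher set each high-cholesterol group is array 1 alone. Genotype differences on chow in the lower set, and on the high-cholesterol diet in the higher set, thus compare 1 array with 1 array.

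None of the 9 genes passed the threshold (limma, Benjamini-Hochberg adjusted p under 0.05 over all 22180 genes) in any of 7 comparisons. Across all genes, 0.0% passed for diet in wild type, 0.271% for diet in Lats2-CKO, 0.0135% for genotype on chow and 0.0% for genotype on the high-cholesterol diet. For diet averaged over genotypes, genotype averaged over diets and the interaction the shares were 1.24%, 0.00451% and 0.00451%. Most of the 9 genes varied widely between arrays of the same group. The standard deviation within groups was 1.64 for Saa2, 1.31 for Lcn2, 1.26 for Orm2 and 1.24 for Saa3, each above that of at least 99.8% of genes. It was 0.76 for Steap4 and 0.50 for Socs3, above 98.8% and 95.8% of genes, and 0.36 for Stat3. Hp and Hpx, at 0.21 and 0.16, lay close to the median over all genes of 0.176.

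**Figure D1:**
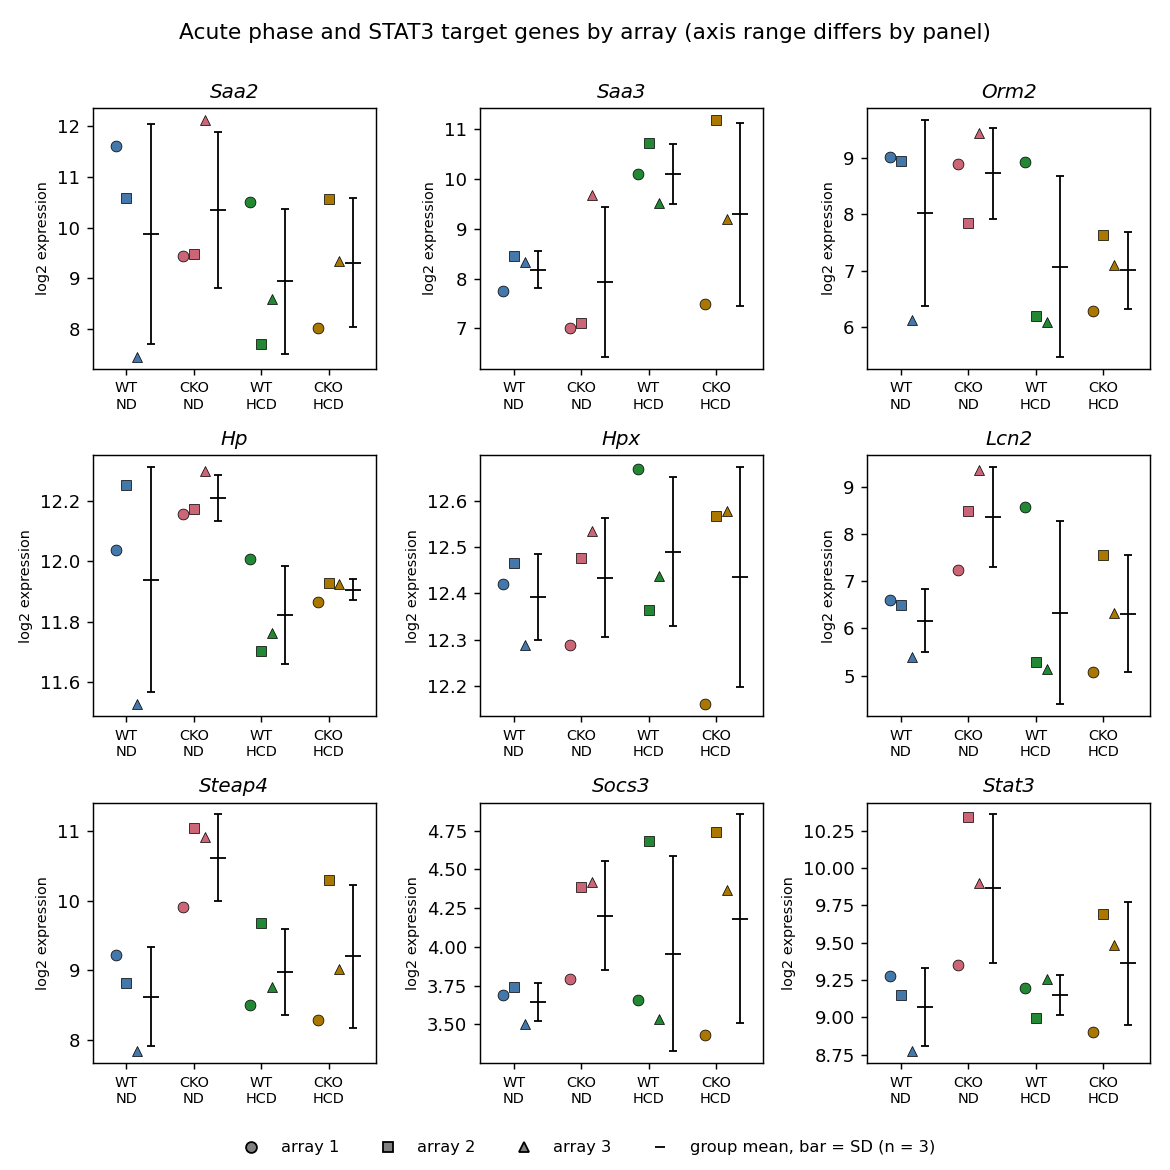
Log2 expression of the 9 measured genes on each of the 12 arrays, by group, with the group mean and SD (n = 3). Steap4, Stat3, Lcn2 and Socs3 are higher on each Lats2-CKO chow array than on each wild-type chow array, while Saa2 and Orm2 spread widely inside groups.

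Among the secreted proteins, Saa2 encodes an apolipoprotein of high-density lipoprotein that the liver releases in inflammation. Saa2 read 11.61, 10.58 and 7.45 in wild type on chow, 9.45, 9.48 and 12.12 in Lats2-CKO on chow, 10.51, 7.71 and 8.6 in wild type on the high-cholesterol diet, and 8.02, 10.56 and 9.34 in Lats2-CKO on that diet. All 4 groups overlapped, and the lowest and highest arrays of the study, 25.4-fold apart, were both on chow. The Lats2-CKO minus wild-type difference on chow was 0.47 ± 1.14 (SE, limma adjusted p = 0.957), and it turned to -0.75 ± 1.02 without wild-type array 3. Within the higher and lower array sets it was -1.63 and 4.67, the last against array 3 alone. The difference between diets was -0.94 ± 1.14 in wild type and -1.04 ± 1.14 in Lats2-CKO (adjusted p = 0.826 and 0.757). Without array 3 the wild-type chow and high-cholesterol groups no longer overlapped, at -2.16 ± 1.02 (adjusted p = 0.316). Within the higher and lower array sets the wild-type diet difference was -0.59 and 0.71.

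Saa3, the serum amyloid gene known from macrophages and fat as well as from liver, had another pattern. It read 7.75, 8.46 and 8.33 in wild type on chow and 10.09, 10.71 and 9.51 on the high-cholesterol diet, so that these groups did not overlap. In Lats2-CKO it read 7.02, 7.11 and 9.67 on chow and 7.50, 11.18 and 9.19 on the high-cholesterol diet, with wide overlap. The high-cholesterol minus chow difference was 1.92 ± 0.87 in wild type, a 3.79-fold higher mean, with an unadjusted p of 0.0489 and a limma adjusted p of 0.47. It was 1.36 ± 0.87 in Lats2-CKO (adjusted p = 0.548) and 1.64 ± 0.61 averaged over genotypes (adjusted p = 0.195). Within the higher and lower array sets the difference was 1.99 and 1.78 in wild type but 0.43 and 0.51 in Lats2-CKO. In Lats2-CKO, leaving out single arrays moved it between 0.41, without high-cholesterol array 2, and 2.25, without high-cholesterol array 1.

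Macrophage markers and Saa3 both had higher means on the high-cholesterol diet. All 11 of 11 markers were fitted higher there in both genotypes, with a median difference of 1.03 in wild type and 1.06 in Lats2-CKO. When genotypes were averaged 3 of them passed the threshold, where 1.24% of all genes did. Between genotypes 0 of the 11 were fitted higher in Lats2-CKO, with medians of -0.764 on chow and -0.733 on the high-cholesterol diet. Their summed linear level was 2450 to 3086 and 3633 to 9461 in wild type on chow and on the high-cholesterol diet, and 1302 to 1836 and 2999 to 3945 in Lats2-CKO. In Lats2-CKO these sums did not overlap between diets, whereas the Saa3 values did. The part of macrophages in the Saa3 values was not tested. In whole liver, fewer cells of a type and less RNA per cell cannot be told apart.

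**Figure D2:**
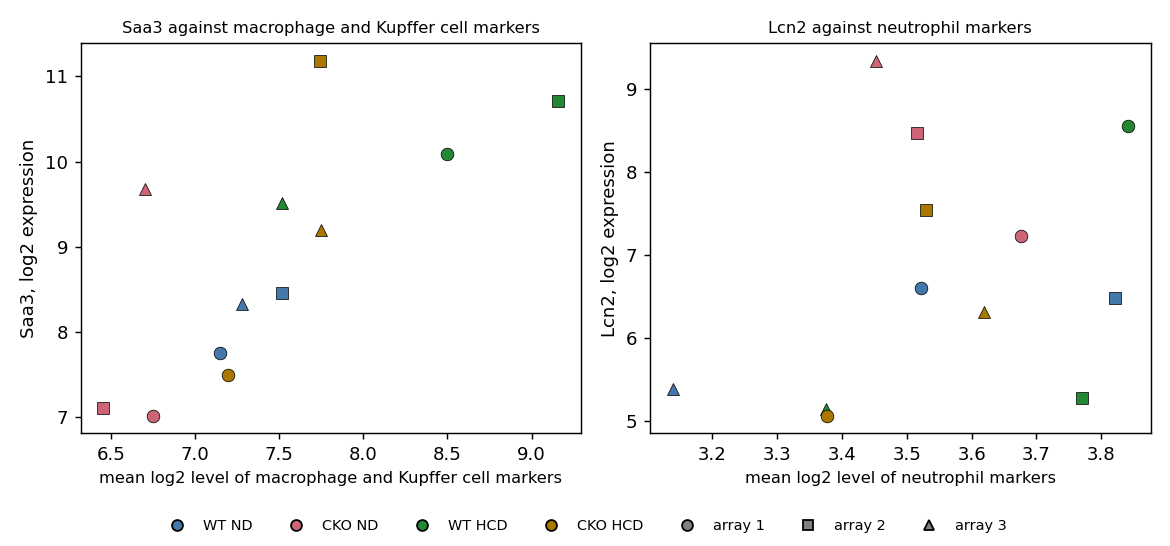
Left, Saa3 (log2) against the mean log2 level of the macrophage markers; right, Lcn2 (log2) against that of the neutrophil markers; each point is 1 of the 12 arrays, with colour for group and shape for array number. Saa3 is highest, at 11.18, on a Lats2-CKO high-cholesterol array with middling macrophage markers, and Lcn2 is highest, at 9.34, on a Lats2-CKO chow array with middling neutrophil markers.

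Orm2 encodes one of the alpha-1-acid glycoproteins, which bind drugs and lipids in plasma. It read 9.01, 8.94 and 6.13 in wild type on chow, 8.90, 7.85 and 9.44 in Lats2-CKO on chow, 8.92, 6.20 and 6.10 in wild type on the high-cholesterol diet and 6.29, 7.63 and 7.10 in Lats2-CKO on that diet. In wild type both diets held values near 6 and near 9, the chow value near 6 being that of array 3. In Lats2-CKO every high-cholesterol array lay below every chow array. The diet difference in Lats2-CKO was -1.72 ± 0.88, a 3.30-fold lower mean, with a limma adjusted p of 0.442. It was -2.09 and -2.07 within the higher and lower array sets. In wild type the difference was -0.95 ± 0.88 (adjusted p = 0.759) and, within the sets, -0.05 and 0.02, the last against chow array 3 alone. Without wild-type chow array 3 it became -1.90 ± 0.78 (unadjusted p = 0.0358, adjusted p = 0.249). The wild-type groups then no longer overlapped either, although the closest pair was 8.94 and 8.92. The genotype difference on chow was 0.70 ± 0.88 (adjusted p = 0.897), and -0.60 and 3.31 within the sets, the last against wild-type array 3 alone.

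Hp encodes haptoglobin, the plasma protein that captures free hemoglobin. Its 12 values spanned 1.71-fold, from 11.53 on wild-type chow array 3 to 12.30 on Lats2-CKO chow array 3. In Lats2-CKO it read 12.16, 12.17 and 12.30 on chow and 11.87, 11.93 and 11.92 on the high-cholesterol diet, and these groups did not overlap. The difference was -0.30 ± 0.16 (limma adjusted p = 0.458), and -0.30 and -0.37 within the array sets. In wild type it read 12.04, 12.25 and 11.53 on chow and 12.01, 11.70 and 11.76 on the high-cholesterol diet, a difference of -0.12 ± 0.16 (adjusted p = 0.853). With chow array 3 left out, this difference was -0.32 ± 0.12 (adjusted p = 0.195), and the groups no longer overlapped. Without wild-type chow array 3, Hp was the one gene of the 9 to pass: averaged over genotypes it was lower on the high-cholesterol diet by a log2 difference of -0.31 ± 0.08, with an adjusted p of 0.0412. In that fit 7.24% of all genes passed.

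Hpx encodes hemopexin, which carries free heme. It showed the smallest spread of the 9 genes, 12.16 to 12.67 over all arrays or 1.42-fold. Group means were 12.39 ± 0.09 and 12.43 ± 0.13 (SD, n = 3) on chow in wild type and Lats2-CKO, and 12.49 ± 0.16 and 12.44 ± 0.24 on the high-cholesterol diet. The 4 pairwise differences lay between -0.06 and 0.10, all with adjusted p of at least 0.849.

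Lcn2 encodes lipocalin 2, which withholds iron from bacteria by binding their siderophores. It read 6.6, 6.49 and 5.39 in wild type and 7.23, 8.47 and 9.34 in Lats2-CKO on chow, without overlap. On the high-cholesterol diet it read 8.56, 5.28 and 5.15 in wild type and 5.07, 7.54 and 6.31 in Lats2-CKO, where a single wild-type array stood above all the others. On chow the Lats2-CKO mean was 4.56-fold higher, at 2.19 ± 0.92 with an unadjusted p of 0.0359 and a limma adjusted p of 0.505. The genotype difference on chow was 1.31 and 3.95 within the higher and lower array sets, the last against wild-type array 3 alone. Without that array it was 1.80 ± 1.03. In Lats2-CKO the high-cholesterol mean was 4.11-fold lower than the chow mean, at -2.04 ± 0.92 (unadjusted p = 0.0477, adjusted p = 0.364), although high-cholesterol array 2 lay above chow array 1. Within the sets this difference was -2.79 and -2.41. Genotypes differed on the high-cholesterol diet by -0.02 ± 0.92 (adjusted p = 1.0), with -3.5 and 1.72 within the sets, the first between array 1 of each genotype.

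**Figure D3:**
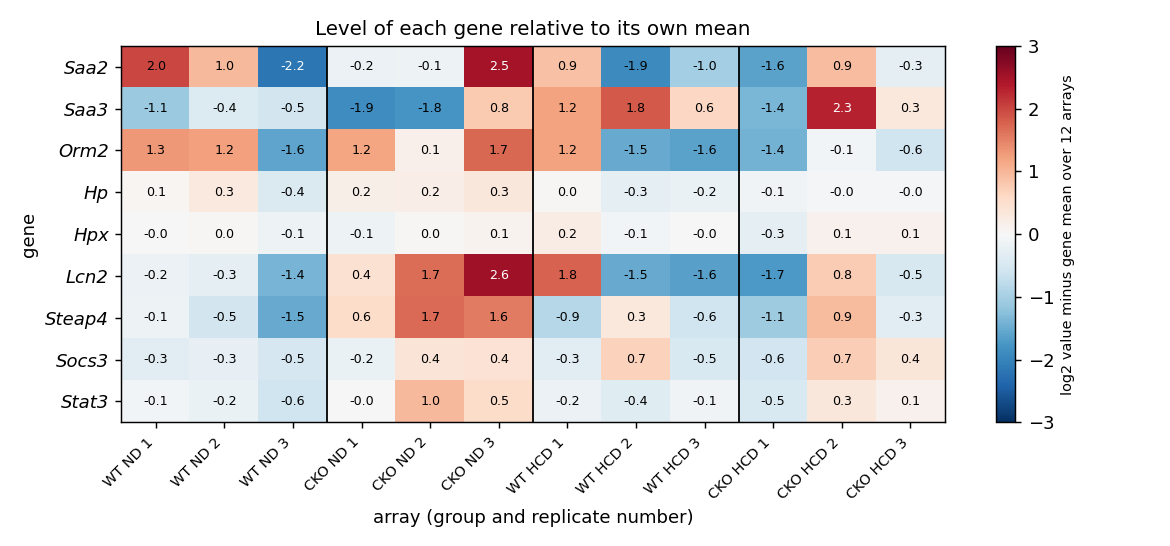
Each gene's log2 value minus its mean over the 12 arrays, with arrays in columns by group. Wild-type chow array 3 and Lats2-CKO high-cholesterol array 1 are low for most genes, and Lats2-CKO chow array 3 is high. Lats2-CKO chow array 1 lies above the mean for Orm2, Hp, Lcn2 and Steap4 and below it for the others, most clearly for Saa3.

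Neutrophils carry lipocalin 2 in their granules, and some of their defining markers read close to the low limit. The summed level of all 12 neutrophil markers was 109 to 240.5 and 149 to 185.9 in wild type and Lats2-CKO on chow, and 138.4 to 199.2 and 135 to 178.6 on the high-cholesterol diet. Ly6g and Mpo lay below 3.05 on 9 of the 12 arrays, Ltf on 10, Elane and Ngp on 8 and Camp on 7. The other 6, S100a8, S100a9, Retnlg, Mmp8, Csf3r and Cxcr2, lay above it on every array, and Retnlg reached 6.53, Csf3r 5.50 and Ngp 5.41. Adipocyte markers (5 of 6 measured) reached a sum of 1061 on 1 chow Lats2-CKO array, replicate 3, where Lcn2 and Saa2 were also at their highest, against 71.55 to 173.3 in wild type on chow. Fabp4 reached 9.97 there, while Adipoq was below 3.05 on 7 of the 12 arrays, Plin1 on 9 and Lep on 11. Without that array the Lats2-CKO minus wild-type difference of Lcn2 on chow was 1.69, the lowest among the fits that left out 1 array. The part of these cells in the values was not tested.

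Of the genes of the STAT3 branch, Stat3 encodes the transcription factor that IL-6 activates, and it is itself among the genes that active STAT3 induces. On chow it read 9.27, 9.15 and 8.77 in wild type and 9.35, 10.34 and 9.90 in Lats2-CKO. All Lats2-CKO arrays lay above all wild-type arrays, although the closest pair was 9.35 and 9.27. The Lats2-CKO mean was 1.74-fold higher, at 0.80 ± 0.26 (unadjusted p = 0.01, limma adjusted p = 0.33). This was 0.65 ± 0.28 without wild-type array 3 (adjusted p = 0.502). Within the higher and lower array sets it was 0.63 and 1.13, the last against that array alone. On the high-cholesterol diet Stat3 read 9.19, 9.00 and 9.26 in wild type and 8.90, 9.70 and 9.49 in Lats2-CKO, where the groups overlapped at 0.21 ± 0.26 (adjusted p = 1.0). The diet difference was 0.08 ± 0.26 in wild type and -0.50 ± 0.26 in Lats2-CKO (adjusted p = 0.946 and 0.439).

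Socs3 encodes the feedback inhibitor of this pathway. Its probe set read low, between 3.43 and 4.74, and a second Socs3 probe set that was not used read 2.87 to 3.34. On chow Socs3 was 3.69, 3.74 and 3.5 in wild type and 3.80, 4.39 and 4.42 in Lats2-CKO. These groups did not overlap, but the difference of 0.56 ± 0.35 had a limma adjusted p of 0.713. The chow difference was 0.38 and 0.92 within the higher and lower array sets, the last against wild-type array 3 alone. Under the high-cholesterol diet it was 3.66, 4.68 and 3.53 in wild type and 3.43, 4.74 and 4.37 in Lats2-CKO, and this last group held both the lowest and the highest value of the study. The diet difference was 0.31 ± 0.35 in wild type and -0.02 ± 0.35 in Lats2-CKO.

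Steap4 encodes a metalloreductase that reduces iron and copper and is known as an inflammation-induced STAT3 and C/EBP target in liver. It read 9.21, 8.81 and 7.84 in wild type and 9.91, 11.04 and 10.91 in Lats2-CKO on chow. Every Lats2-CKO array lay above every wild-type array, and the 4.0-fold higher mean (2.0 ± 0.54) had the lowest unadjusted p of the 9 genes, 0.00333, with a limma adjusted p of 0.264. It stayed at 1.61 ± 0.56 without wild-type array 3 (adjusted p = 0.383). Within the higher and lower array sets the difference was 1.46 and 3.08, the last against that array alone. On the high-cholesterol diet it read 8.5, 9.68 and 8.75 in wild type and 8.28, 10.30 and 9.02 in Lats2-CKO, a difference of 0.22 ± 0.54 (adjusted p = 1.0). The high-cholesterol minus chow difference was -1.42 ± 0.54 in Lats2-CKO, a 2.68-fold lower mean (unadjusted p = 0.0226, adjusted p = 0.273), and 0.36 ± 0.54 in wild type (adjusted p = 0.868). Within the sets the Lats2-CKO difference was -2.20 and -1.25.

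Counted over the 9 genes, Lats2-CKO on chow lay wholly above wild type in 4, namely Lcn2, Steap4, Socs3 and Stat3, and wholly below in none. Across all genes 5.96% did so in that direction. Unadjusted p was under 0.05 for 3 of the 9, against 8.99% of all genes. Without wild-type chow array 3 it was under 0.05 for 2 of the 9, Stat3 and Steap4, against 2100 of all 22180 genes. With the high-cholesterol diet no gene of the 9 separated the genotypes, with 7.44% of all genes doing so in either direction, and none reached an unadjusted p under 0.05 (2.93% of all genes). Between diets, Orm2 and Hp lay wholly lower on the high-cholesterol diet in Lats2-CKO (10.5% of all genes) and Saa3 wholly higher in wild type (4.97%). Without wild-type chow array 3, Saa2, Orm2 and Hp also lay wholly lower in wild type. Only 2 chow arrays were then left, and the share of all genes was not counted, so nothing is concluded from this separation. In that fit 2 of the 9 were lower for diet in wild type at an unadjusted limma p under 0.05, against 2267 of all 22180 genes. With all arrays, unadjusted p was under 0.05 for 2 genes in Lats2-CKO (13.4% of all genes) and 1 in wild type (10.6%). The genotype comparison on chow and the diet comparison in Lats2-CKO share the 3 Lats2-CKO chow arrays, so the same high values enter both.

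**Figure D4:**
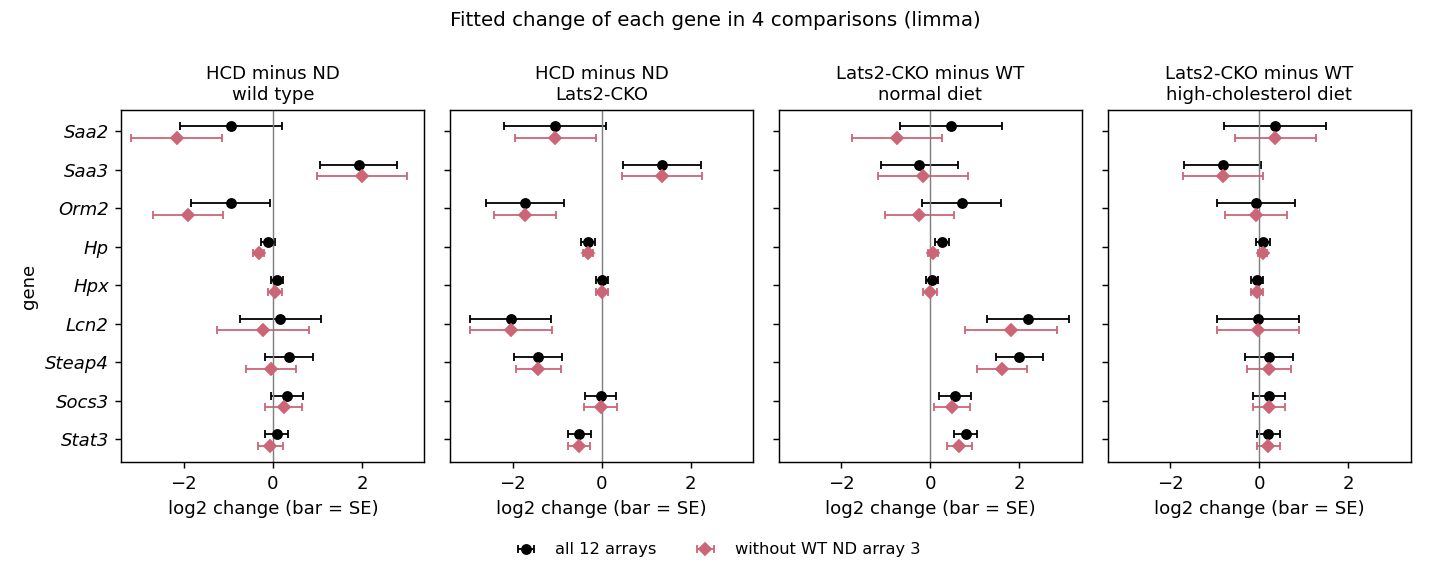
Fitted log2 differences of the 9 genes with their standard errors, with all arrays (black) and without wild-type chow array 3 (red), for diet in each genotype and genotype on each diet. Steap4, Lcn2 and Stat3 have the largest differences relative to error for genotype on chow, at 2.0, 2.19 and 0.80, and lie near 0 for genotype on the high-cholesterol diet.

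Whether diet acted differently in the 2 genotypes was tested by the interaction. The fitted interaction was below 0 for all 9 genes, from -0.10 ± 0.19 for Hpx to -2.21 ± 1.29 for Lcn2, and below 0 for 6 of 9 without wild-type chow array 3. That of Steap4 was -1.78 ± 0.76, with an unadjusted p of 0.0388 and a limma adjusted p of 0.884, and -1.39 ± 0.75 without that array. For Lcn2 and Stat3 (-0.59 ± 0.36) adjusted p was 0.931 and 0.934. An unadjusted p under 0.05 was reached by 1 of the 9 genes and by 5.62% of all genes. A different diet response of these genes in the 2 genotypes was therefore not shown. Averaged over diets, the Lats2-CKO minus wild-type difference was 1.11 ± 0.38 for Steap4 and 0.50 ± 0.18 for Stat3 (adjusted p = 0.759 and 0.776).

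The genes tended to be low or high on the same arrays. Lats2-CKO high-cholesterol array 1 was the lowest of its group for all 9 genes, and Lats2-CKO chow array 1 for 8, all but Orm2. Wild-type chow array 3 was the lowest of its group for 8, all but Saa3. Lats2-CKO high-cholesterol array 2 was the highest of its group for 8 genes and Lats2-CKO chow array 3 for 7. Over the 12 arrays Saa2 and Orm2 had a Pearson r of 0.889, and 0.898 for deviations from group means. Steap4 and Stat3 had 0.873 and 0.724. Saa2 and Saa3, in contrast, had 0.10 and 0.481. The points of these correlations share arrays and their normalization. Among other genes, the 5 whose values were most like the mean of centred Saa2, Saa3, Orm2 and Lcn2 were Saal1, Dph5, Ung, Mill2 and Glt6d1 (r = 0.861, 0.855, 0.827, 0.819 and 0.815 over 12 arrays). All 5 read low, Saal1 between 3.36 and 4.31.

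Other acute phase genes were described from a list. Of 24 other positive acute phase genes 22 were measured, and with all arrays none passed the threshold in the comparisons of diet within genotype or genotype within diet. An unadjusted p under 0.05 was reached by 4 of them for genotype on chow, 3 higher and 1 lower (8.99% of all genes), and by 8 for diet in Lats2-CKO, 3 higher and 5 lower (13.4% of all genes). Their median Lats2-CKO minus wild-type difference on chow was 0.13, with 17 of 22 fitted higher, against 0.56 and 8 of 9 for the genes above and a median of 0 over all genes. Without wild-type chow array 3 both medians were 0.06, with 16 of 22 and 5 of 9 fitted higher, and the median over all genes was -0.009. Saa4, the constitutive serum amyloid gene, read 11.32, 11.42 and 11.25 in wild type and 12.06, 11.71 and 11.92 in Lats2-CKO on chow, and 10.99, 11.29 and 11.35 against 11.41, 11.70 and 11.51 on the high-cholesterol diet. Its genotypes did not overlap on either diet, at 0.57 ± 0.13 and 0.33 ± 0.13 (limma adjusted p = 0.222 and 1.0). Cp, the copper-carrying ceruloplasmin, was between 11.43 and 11.98 on all chow arrays and between 12.06 and 12.17 on all high-cholesterol arrays, a diet difference of 0.38 ± 0.09 averaged over genotypes (adjusted p = 0.0585). Without wild-type chow array 3, 3 genes of the list passed in that average, where 7.24% of all genes did: Cp and Lbp, the lipopolysaccharide-binding protein gene, were higher, at 0.44 and 0.46, and Fgl1, which encodes a fibrinogen-like secreted protein, was lower, at -1.67. In the same fit Cp passed for diet in wild type as well, at 0.56 (adjusted p = 0.0422), where 2.33% of all genes did.

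The metallothionein genes Mt1 and Mt2, which encode metal-binding proteins, are named here after their values were seen. On chow Mt1 read 6.99, 7.82 and 7.31 in wild type and 8.35, 9.96 and 9.76 in Lats2-CKO, and Mt2 8.42, 9.34 and 9.06 against 9.74, 10.95 and 10.79. Neither overlapped, with differences of 1.98 ± 0.70 and 1.56 ± 0.81 (limma adjusted p = 0.394 and 0.622). With -0.61 ± 0.70 and -1.01 ± 0.81, the fitted genotype differences on the high-cholesterol diet lay on the other side of 0, and the lowest values of both genes, 5.29 and 5.98, were on Lats2-CKO high-cholesterol array 1. Hamp, of the same acute phase list and also named after its values were seen, went the other way on chow. It read 12.02, 12.25 and 11.87 in wild type and 11.63, 10.92 and 10.95 in Lats2-CKO, without overlap (-0.88 ± 0.39, adjusted p = 0.534). In that comparison 5 of the 22 genes were fitted lower.

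Apcs, the serum amyloid P gene, differed between genotypes by 1.11 ± 0.48 on chow (adjusted p = 0.531), with its highest value, 9.55, on Lats2-CKO chow array 3. Crp and Orm1 differed by -0.03 ± 0.12 and 0.07 ± 0.19 in that comparison. Serpina3n, a protease inhibitor gene, and Lrg1, a secreted glycoprotein gene, differed between genotypes on chow by 0.11 ± 0.22 and 0.03 ± 0.33, and between diets in wild type by -0.51 ± 0.22 and -0.51 ± 0.33 (adjusted p = 0.458 and 0.622). Of 11 negative acute phase genes, whose transcripts normally go down in inflammation, 10 were measured. Their median was 0.06 for genotype on chow and -0.07 for diet in Lats2-CKO. Ttr, the thyroxine carrier transthyretin, differed by -0.13 ± 0.11 between genotypes on chow, and Apom, the lipocalin of high-density lipoprotein, by -0.60 ± 0.21 between diets in Lats2-CKO (adjusted p = 0.231). Apom was the one gene of this list to pass in the diet average without wild-type chow array 3, at -0.52, where 7.24% of all genes did. With all arrays, Pon1 differed by -0.24 ± 0.15 between diets in Lats2-CKO (adjusted p = 0.54).

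**Figure D5:**
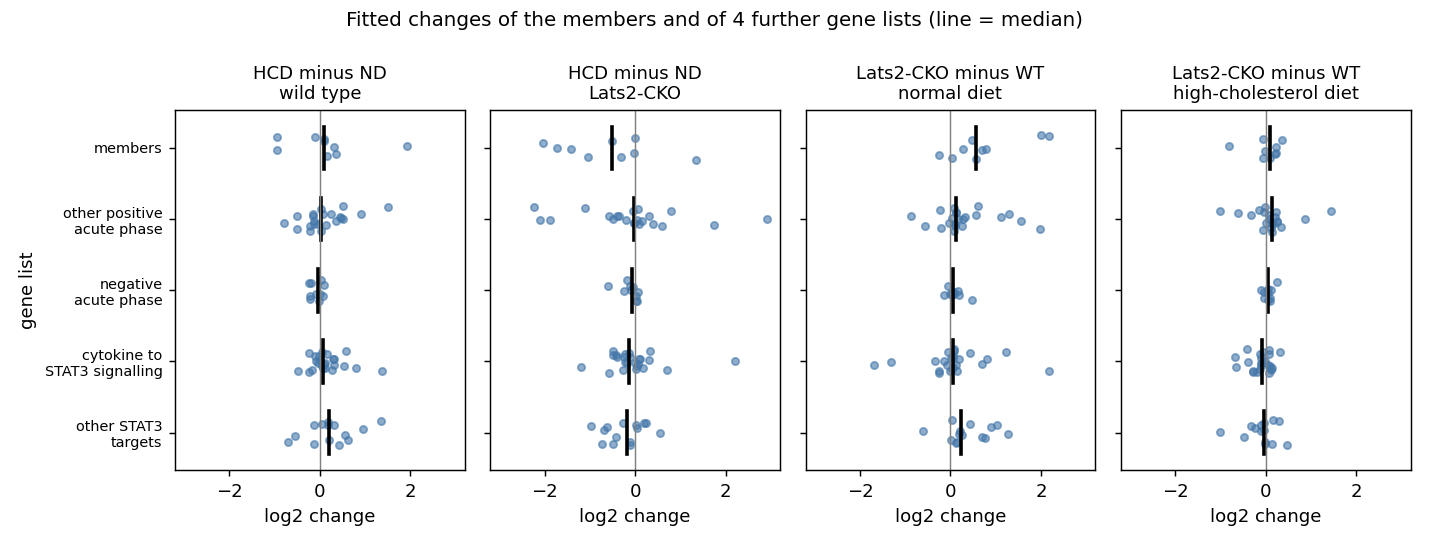
Fitted log2 differences of each measured gene of the acute phase and STAT3 lists in the 4 comparisons, with list medians. For genotype on chow the medians are 0.56 for the 9 genes, 0.13 for other positive acute phase genes and 0.23 for other STAT3 targets. Without wild-type chow array 3, which the figure includes, these medians are 0.06, 0.06 and 0.28.

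Upstream, 24 of 27 cytokine, receptor and signalling genes were measured. None passed in the same 4 comparisons with all arrays. For genotype on chow 4 were higher and 1 lower at an unadjusted p under 0.05 (8.99% of all genes), with a median of 0.05 and 15 fitted higher. Of the 24, 3 lay wholly above wild type there (5.96% of all genes) and 1 wholly below. Cebpb, one of the C/EBP genes, was among the 3, at 0.69 ± 0.36 (adjusted p = 0.618). Il6 itself read 3.12 to 3.66 on all arrays, close to the low limit, and Il6st, the gene of gp130, differed by 0.01 ± 0.12. Il1b, the gene of an interleukin 1, was fitted lower there with overlap, at -1.305 ± 0.795 (adjusted p = 0.697). It read 6.573, 5.789 and 3.045 in wild type and 4.224, 4.152 and 3.115 in Lats2-CKO on chow. The low wild-type value was that of array 3, and the overlap rested on it. Without that array the Il1b difference was -2.35, the lowest of this list. With all arrays, Tnf, Socs1 and Cebpd differed between genotypes on chow by 0.12 ± 0.33, 0.05 ± 0.18 and 0.03 ± 0.14. Between diets in wild type Tnf differed by 0.80 ± 0.33 (adjusted p = 0.433), but it read below 3.05 on 7 of the 12 arrays. Il6ra, the ligand-binding receptor chain, read 7.69, 7.52 and 8.01 in wild type and 7.95, 8.96 and 8.76 in Lats2-CKO on chow (0.82 ± 0.26, limma adjusted p = 0.326). Il1r1, the signalling receptor of interleukin 1, read 7.73, 7.08 and 9.25 in wild type and 9.26, 11.03 and 10.31 in Lats2-CKO, a 4.53-fold higher mean (2.18 ± 0.52, adjusted p = 0.233). Its high wild-type value was that of array 3, without which the difference was 2.80 ± 0.42 (adjusted p = 0.0637). Without that array Il1r1 also passed for diet in wild type, at 1.998 ± 0.42 (adjusted p = 0.0396, 2.33% of all genes). Il22ra1, the receptor chain of interleukin 22, went the other way on chow, at 6.18, 5.80 and 8.12 against 5.56, 4.56 and 4.93 (-1.68 ± 0.64, adjusted p = 0.443). Here too the high wild-type value was that of array 3, and the difference without it was -0.97 ± 0.55 (adjusted p = 0.642). In Lats2-CKO the high-cholesterol minus chow difference was 2.21 ± 0.64 (adjusted p = 0.154). Averaged over genotypes it passed without array 3, at 1.75 (adjusted p = 0.0204, 7.24% of all genes).

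All 14 other STAT3 target genes were measured, and with all arrays none passed in the 4 comparisons within a genotype or diet. Their median for genotype on chow was 0.23, with 13 of 14 fitted higher. Of the 14, 6 lay wholly above wild type (5.96% of all genes), and 4 were higher and 1 lower at an unadjusted p under 0.05 (8.99% of all genes). Without wild-type chow array 3 the median was 0.28, with 12 of 14 fitted higher. In that fit 0 were higher and 1 lower at an unadjusted p under 0.05, against 2100 of all 22180 genes. Junb and Myc, which encode transcription factors, were among the 6, at 0.90 ± 0.38 and 1.03 ± 0.67 (limma adjusted p = 0.519 and 0.72). Pim3, a kinase gene, was also among them, at 0.44 ± 0.17 (adjusted p = 0.462). Fos lay wholly below wild type, at -0.62 ± 0.23, but read below 3.05 on 9 of the 12 arrays. Without wild-type chow array 3 Fos passed for diet in wild type, lower at -0.83 (adjusted p = 0.0477, 2.33% of all genes). For genotype on the high-cholesterol diet the list's median was -0.04, and 4 of 14 were fitted higher. Bcl3, an NF-kB partner, was lower on the high-cholesterol diet by -0.84 ± 0.33 averaged over genotypes (adjusted p = 0.216), and passed at -1.10 (adjusted p = 0.039) without wild-type chow array 3, where 7.24% of all genes did.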

How the data were processed

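Liver RNA of 12 male mice was measured on Affymetrix arrays. The values are those the authors deposited, in log2 units per probe set, made with RMA in Partek 6.6 per the submitters' processing notes. Scanner files were not used here, so background and saturation of single probes could not be examined, and the number of arrays limits precision. The annotation gave 1 symbol to 23521 of 41345 probe sets, several to 1814 and none to 16010. The probe set with the highest mean stood for each of 22180 genes. No filter on low values was applied in the fit.

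Differences were fitted with limma 3.58.1 (lmFit, eBayes) in R 4.3.3, over 12 arrays with 4 group means, and p-values were adjusted (Benjamini-Hochberg, all genes; threshold 0.05). P-values measure the spread between these arrays. The script was tested on simulated data. Named genes were the members, the 3 genes of each pathway list with the lowest p in any diet or genotype comparison, and a short list of known pathway genes. The interaction was left out of that choice. Members and lists were chosen with earlier results of these data known. Promoters came from RefSeq. Deviations of arrays with the same replicate number correlated weakly (0.002 to 0.176, over 0.1 in 7 of 18 pairs), which was not taken as pairing, so the main fit has no block.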

Additional observations from a re-analysis of the deposited data

How the results depend on the processing

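The 9 genes kept their side of the threshold in all refits, apart from the diet average: 0 genes passed there with 11 of the single arrays left out, and 1 (Hp) passed without wild-type chow array 3. Some fitted differences changed sign, none of them past the threshold. With array weights the log2 difference became Lcn2 -0.53 for diet in wild type, Socs3 0.19 for diet in Lats2-CKO, Orm2 0.56, Hpx 0.057 and Lcn2 0.85 for genotype on the high-cholesterol diet, Hpx 0.037 for genotype averaged over diets and Saa2 0.92, Orm2 0.25 and Hpx 0.039 for the interaction. With the array set as a block, it became Hpx -0.010 for diet in Lats2-CKO. With quantile normalization, it became Hpx -0.11 for diet in Lats2-CKO, Lcn2 0.028 for genotype on the high-cholesterol diet and Hpx -0.036 for diet averaged over genotypes. With all probe sets of a gene averaged, it became Socs3 0.032 for diet in Lats2-CKO. Leaving out 1 array in turn turned further signs, and the log2 differences ranged as follows. For diet in wild type they ran from -0.32 to 0.041 for Hp, from -0.95 to 0.76 for Lcn2, from -0.035 to 0.65 for Steap4, from -0.050 to 0.53 for Socs3 and from -0.064 to 0.19 for Stat3. For diet in Lats2-CKO they ran from -0.071 to 0.14 for Hpx and from -0.30 to 0.35 for Socs3. For genotype on chow they ran from -0.75 to 1.33 for Saa2, from -1.11 to 0.21 for Saa3, from -0.24 to 1.19 for Orm2 and from -0.009 to 0.11 for Hpx. For genotype on the high-cholesterol diet they ran from -0.26 to 1.15 for Saa2, from -1.76 to 0.081 for Saa3, from -0.56 to 0.85 for Orm2, from -0.12 to 0.082 for Hpx, from -0.64 to 1.09 for Lcn2, from -0.33 to 0.68 for Steap4 and from -0.055 to 0.60 for Socs3. For diet averaged over genotypes they ran from -0.035 to 0.33 for Socs3. For genotype averaged over diets they ran from -0.19 to 0.85 for Saa2, from -0.16 to 0.78 for Orm2 and from -0.042 to 0.062 for Hpx. For the interaction they ran from -0.96 to 1.12 for Saa2, from -1.51 to 0.33 for Saa3, from -1.26 to 0.17 for Orm2, from -0.34 to 0.019 for Hp, from -0.17 to 0.040 for Hpx and from -0.61 to 0.042 for Socs3. 

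With the replicate number as a block, 0 of the 9 genes passed in any comparison. The Steap4 genotype difference on chow was 2.0 with an adjusted p of 0.171 in limma, and no call changed. The unadjusted limma p of Lcn2 rose to 0.0553 for genotype on chow and to 0.0704 for diet in Lats2-CKO. Those of Stat3 and Steap4 for genotype on chow and of Saa3 for diet in wild type stayed under 0.05. Genes whose level is low, such as Socs3, are limited by the background of the array.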
